A study of Mus musculus with 42 samples.

Results

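The transcripts of 8 genes that bind, sense or move zinc were followed through kidney and liver of mice fed candidate longevity compounds. The genes were the metallothioneins Mt1 and Mt2, the metal-sensing transcription factor Mtf1, the importers Slc39a14, Slc39a8 and Slc39a4, and the exporters Slc30a1 and Slc30a10. They were taken by symbol, as 8 of the 43629 genes in the count table, and each matched 1 Ensembl gene. RNA was read from its 3' ends by CEL-seq, which barcodes the polyadenylated RNA of each sample, in 30 kidney and 12 liver libraries of 10 groups. All mice were males of the UM-HET3 stock, a cross of several inbred strains, and were 4 months old after 1 month on the diets, which began at 3 months. Kidney groups of 4 libraries received AS-703026 at 30 ppm (an inhibitor of the kinase MEK), ascorbyl-palmitate at 6.3 ppm (a fat-soluble ester of vitamin C), AZD8055 at 20 ppm or KU0063794 at 10 ppm (both inhibitors of the kinase mTOR), enzastaurin at 75 ppm (a protein kinase C inhibitor) or GDC-0941 at 50 ppm (a phosphoinositide 3-kinase inhibitor). The 6 kidney controls ate the same diet without a compound. Liver groups of 4 libraries received AS-703026, enzastaurin or GDC-0941 at those doses. Liver controls were not analysed here, so each liver group was set against the other liver groups, and no liver value states a change from an untreated animal. The submitters call the libraries biological replicates.

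Metallothioneins are small cysteine-rich proteins that hold zinc and copper in the cytosol, and their transcription rises with metal load, glucocorticoids and interleukin-6. MTF1 is the factor that binds zinc and then occupies metal response elements in the promoters of Mt1, Mt2 and Slc30a1. ZIP proteins, encoded by Slc39 genes, bring zinc into the cytosol, and ZnT proteins, encoded by Slc30 genes, take it out of the cytosol. In liver, interleukin-6 raises Slc39a14 and the metallothioneins during the acute phase response, when plasma zinc falls. SLC39A14, SLC39A8 and SLC30A10 also carry manganese.

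Mt2 lies at chr8:94172664-94173568 and Mt1 at chr8:94179082-94180327 of GRCm38, both on the plus strand and both protein-coding. The promoter windows of Mt1, Mt2 and Slc30a1 are shown because these genes are textbook targets of MTF1, and only 2 of the 3 differed between liver groups. Each line gives 240 bases, from 250 to 11 bases before the RefSeq start (GRCm38.p6, plus strand), 5′ to 3′. Capitals mark matches to the metal response element core, searched as TGCACNC and TGCGCNC on both strands.
Mt1, chr8:94178839-94179078: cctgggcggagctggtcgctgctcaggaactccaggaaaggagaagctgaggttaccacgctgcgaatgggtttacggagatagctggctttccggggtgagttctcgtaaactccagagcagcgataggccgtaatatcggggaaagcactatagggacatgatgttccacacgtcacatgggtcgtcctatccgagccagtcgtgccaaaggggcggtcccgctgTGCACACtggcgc
Mt2, chr8:94172368-94172607: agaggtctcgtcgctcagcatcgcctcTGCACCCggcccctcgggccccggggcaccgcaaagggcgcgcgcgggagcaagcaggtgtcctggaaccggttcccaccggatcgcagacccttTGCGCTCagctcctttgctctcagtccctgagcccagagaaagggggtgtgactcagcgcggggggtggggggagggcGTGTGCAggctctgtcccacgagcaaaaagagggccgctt
Slc30a1, chr1:191906531-191906770: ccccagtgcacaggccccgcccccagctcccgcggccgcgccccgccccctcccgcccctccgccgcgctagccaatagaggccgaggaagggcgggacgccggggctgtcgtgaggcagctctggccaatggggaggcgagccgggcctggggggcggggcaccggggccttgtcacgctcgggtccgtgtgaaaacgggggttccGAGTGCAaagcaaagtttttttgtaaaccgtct
The Mt2 window held 3 matches, and the Mt1 and Slc30a1 windows held 1 each. Among 32851 promoter windows of the same length, 20.4% held at least 1 match and 1.18% held at least 3. The Slc30a10 window held 3 matches, of which 2 overlap on opposite strands, the Mtf1 window held none, and of 2 windows of Slc39a8 1 held a match. RefSeq windows were matched for 6 of the 8 genes, all but Slc39a14 and Slc39a4. The Mt1 start in that table lies upstream of other annotated Mt1 starts, since the GENCODE transcript Mt1-202 begins 152 bases further on. The first exon of transcript Mt1-201 held 4 further matches, at 2, 20, 84 and 98 bases after the RefSeq start, all of them before the start of Mt1-202. The first exon of Mt2-201 held 3 further matches. No window of the 6 genes held the STAT motif TTCNNNGAA, which 6.77% of all windows held. The first exons were not searched for it and Slc39a14 had no window, so control by STAT factors was not tested.

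Total counts ran from 863605 to 5691067 in kidney and from 1084591 to 4361115 in liver. Levels are given as CPM, counts divided by the library total after TMM scaling within each tissue. Differences come from edgeR's quasi-likelihood test over all genes of a tissue, with Benjamini-Hochberg adjusted p-values called below 0.05. The 6 adipocyte markers summed to 26061 CPM in kidney AZD8055 replicate 4 and to at most 308 in the other kidneys. The 6 hepatocyte markers summed to 1597 CPM in kidney enzastaurin replicate 1, with GDC-0941 replicate 3 at 1526 and KU0063794 replicate 4 at 1524. Without AZD8055 4 and enzastaurin 1, as with them, none of the 8 genes passed in kidney. The libraries also differed in the share of counts in 13 gene models that resemble satellite repeats, which ran from 0.0350% to 29.0% in kidney and from 0.124% to 1.77% in liver. In whole tissue, fewer cells of a type and less RNA per cell cannot be told apart.

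In liver, Mt1 and Mt2 were far higher under AS-703026 than under the other compounds, and Slc39a14, the importer of the acute phase, was about doubled. The other 5 genes did not pass the test in any liver comparison. Against enzastaurin 3 of the 8 genes passed, all of them higher, where 2.96% of the 9490 genes tested passed, 1.93% as higher. Against GDC-0941 the same 3 genes passed, all higher, where 3.22% of genes passed, 2.04% as higher. For these 3 genes no AS-703026 library overlapped a library of either other group. The groups did not overlap for 8.63% of genes against enzastaurin and for 9.70% against GDC-0941.

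Mt1 was measured at 3436, 670, 4235 and 1102 CPM in AS-703026 livers 1 to 4. It was at 55.2, 98.9, 125 and 39.4 CPM under enzastaurin and at 188, 29.2, 56.3 and 378 CPM under GDC-0941. The lowest AS-703026 library thus stood above the highest of the other 8, and the libraries within each group were far apart. The means were 2361 ± 1743 CPM under AS-703026, 79.7 ± 39.4 under enzastaurin and 163 ± 159 under GDC-0941 (SD, n = 4 each). Mt1 was 29.6-fold higher under AS-703026 than under enzastaurin, a log2 difference of 4.89 ± 0.80 (SE; edgeR adjusted p = 0.00417). Against GDC-0941 the log2 difference was 3.86 ± 0.76 (SE; edgeR adjusted p = 0.0116), or 14.6-fold.

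Mt2 gave 4211, 432, 3821 and 1069 CPM in AS-703026 livers 1 to 4. Under enzastaurin it was at 17.3, 50.6, 87.6 and 7.52 CPM, and under GDC-0941 at 89.0, 9.81, 19.5 and 158 CPM. As for Mt1, AS-703026 livers 1 and 3 were the highest and liver 2 the lowest of their group. The log2 difference of Mt2 was 5.87 ± 1.00 (SE) against enzastaurin, or 58.3-fold, with an edgeR adjusted p of 0.00532. Against GDC-0941 it was 5.12 ± 0.96 (SE), or 34.9-fold, with an edgeR adjusted p of 0.00959. The 95% intervals of these folds were wide, reaching down to 13.2-fold and 8.36-fold.

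**Figure D1:**
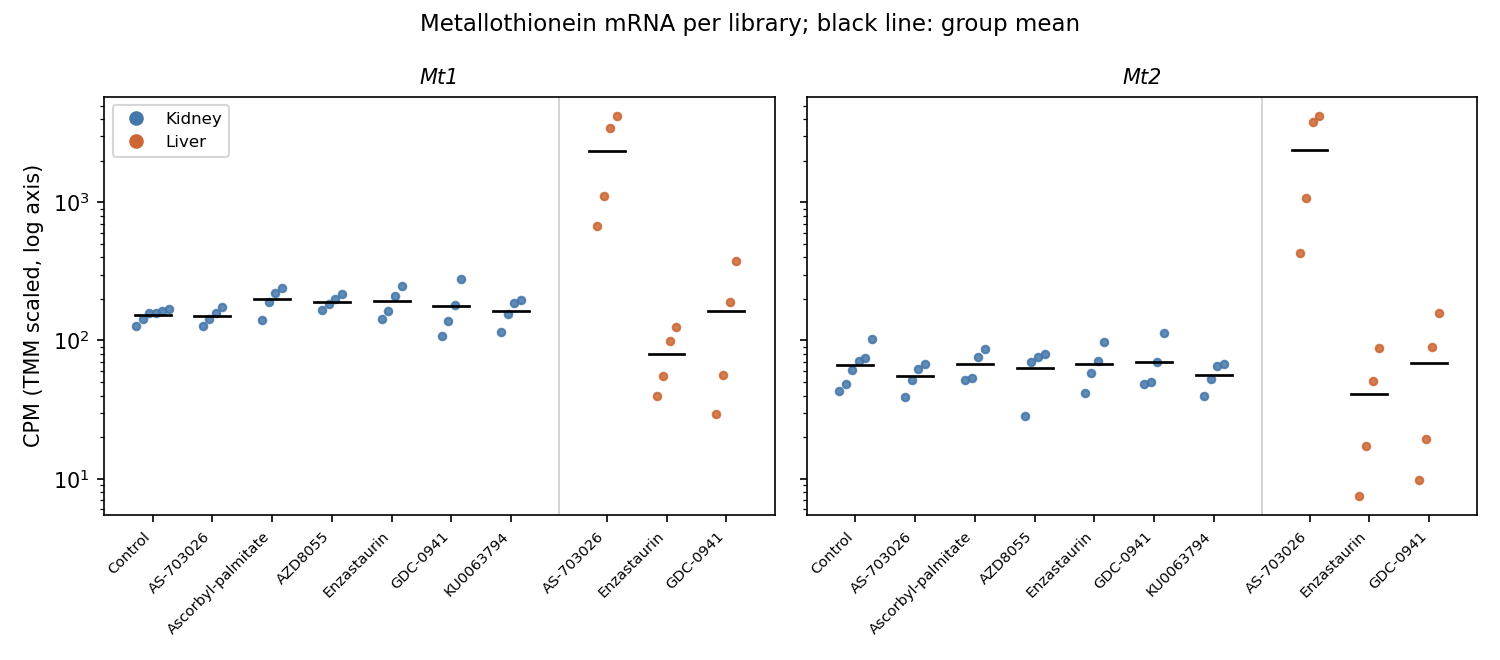
Level of Mt1 (left) and Mt2 (right) in each library, in CPM on a log axis, by compound for kidney (blue) and liver (orange), with black lines at group means. The 4 AS-703026 livers lie above all 38 other libraries for both genes, and the treated kidney groups overlap the 6 controls.

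The ratio of the metallothioneins was also compared. For each count of Mt1 there were 1.23, 0.645, 0.902 and 0.971 counts of Mt2 in AS-703026 livers 1 to 4, a mean of 0.936 ± 0.238 (SD, n = 4). The ratio was 0.429 ± 0.224 under enzastaurin and 0.393 ± 0.064 under GDC-0941 in liver. Kidney group means ran from 0.332 under AZD8055 to 0.432 in controls. The log2 ratio was higher by 1.25 under AS-703026 than under enzastaurin (two-sided exact permutation p = 0.0571, adjusted over 3 liver pairs 0.0857). Against GDC-0941 it was higher by 1.23 (exact permutation p = 0.0286, the smallest these groups allow; adjusted p = 0.0857), so neither passed after adjustment. The ratio was looked at after the levels had been seen. The annotated transcripts of Mt1 and Mt2 share no 24-base word in GENCODE M21. Of the 580 words of Mt2, 358 lie on the opposite strand of the antisense gene Gm45774, which was not used here, and the strand setting of the counting is not given in the sources used here.

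**Figure D2:**
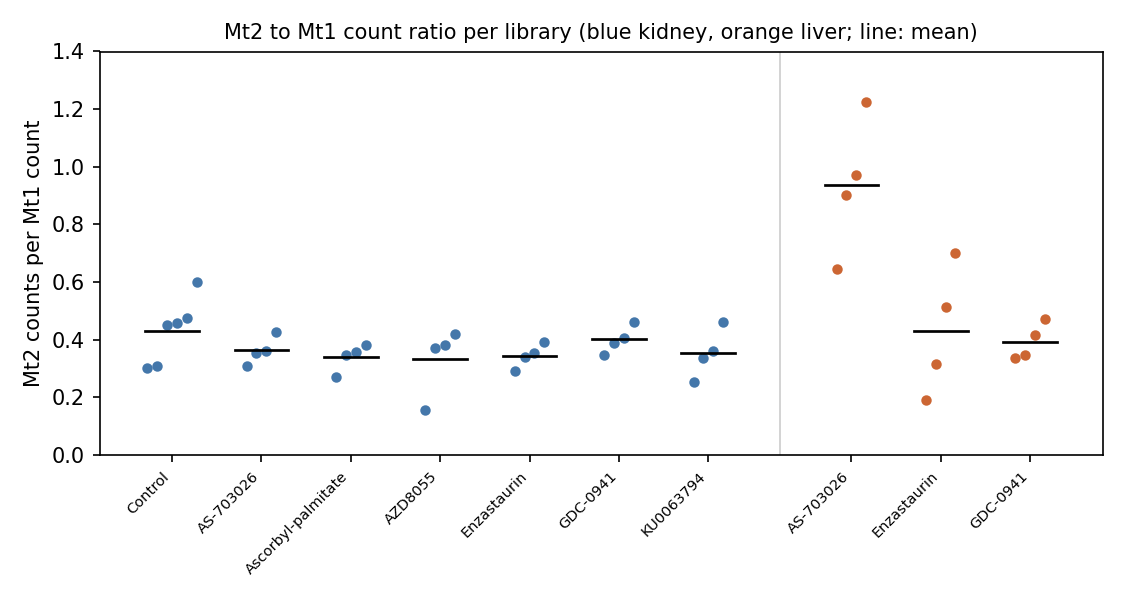
Counts of Mt2 per count of Mt1 in each library, by compound for kidney (blue) and liver (orange), with black lines at group means. The AS-703026 livers run from 0.645 to 1.23, and the lowest of them lies below the highest enzastaurin liver at 0.700.

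Slc39a14 was at 102, 75.2, 103 and 100 CPM in AS-703026 livers 1 to 4. It was at 68.7, 46.4, 44.2 and 36.4 CPM under enzastaurin and at 41.9, 57.8, 57.3 and 43.7 CPM under GDC-0941. The spread within AS-703026 was small beside that of the metallothioneins, with liver 2 again the lowest. The log2 difference was 0.98 ± 0.18 (SE) against enzastaurin (edgeR adjusted p = 0.00853) and 0.93 ± 0.18 (SE) against GDC-0941 (edgeR adjusted p = 0.0104). Slc39a14 lies on chromosome 14 at chr14:70303469-70351425, on the minus strand.

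The 2 other importers did not pass in liver. Slc39a4, the importer whose human counterpart is mutated in acrodermatitis enteropathica, was at 121 ± 35.8 CPM under AS-703026, 155 ± 14.5 under enzastaurin and 124 ± 43.0 under GDC-0941. Slc39a8, which carries zinc and manganese, was nearly level at 24.6 ± 3.55, 25.3 ± 2.75 and 24.7 ± 3.26 CPM in the same order (SD, n = 4). Its log2 difference between AS-703026 and enzastaurin was -0.04, with a 95% interval from -0.36 to 0.27. That interval leaves out a doubling like that of Slc39a14.

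Neither exporter passed in liver. Slc30a1, the zinc exporter of the plasma membrane and a target of MTF1, was at 77.0 ± 9.77 CPM under AS-703026, 64.8 ± 9.10 under enzastaurin and 74.5 ± 5.47 under GDC-0941. Its log2 difference against enzastaurin was 0.24 (95% interval -0.03 to 0.50, edgeR adjusted p = 0.383) and against GDC-0941 0.04 (-0.22 to 0.31). Slc30a10, which exports manganese, was at 84.8, 27.2, 61.5 and 50.3 CPM in AS-703026 livers 1 to 4, against means of 57.6 ± 9.08 under enzastaurin and 43.9 ± 9.71 under GDC-0941. Mtf1 itself stood at 18.4 ± 6.43, 19.9 ± 5.39 and 17.9 ± 2.37 CPM, and its largest log2 difference among the liver pairs was 0.12. Enzastaurin and GDC-0941 livers differed in 0 of the 8 genes (edgeR), where 0% of genes passed and the groups did not overlap for 4.93% of genes. None of the 8 had an unadjusted p below 0.05 there, and DESeq2 also called 0 of them, where it called 18 of all genes. The widest gap in that pair was for Mt1, at -1.02 on the log2 scale with a 95% interval from -2.52 to 0.47. That gap was -0.18 without GDC-0941 liver 4, and the Mt2 difference moved from -0.74 to 0.084 without the same library.

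**Figure D3:**
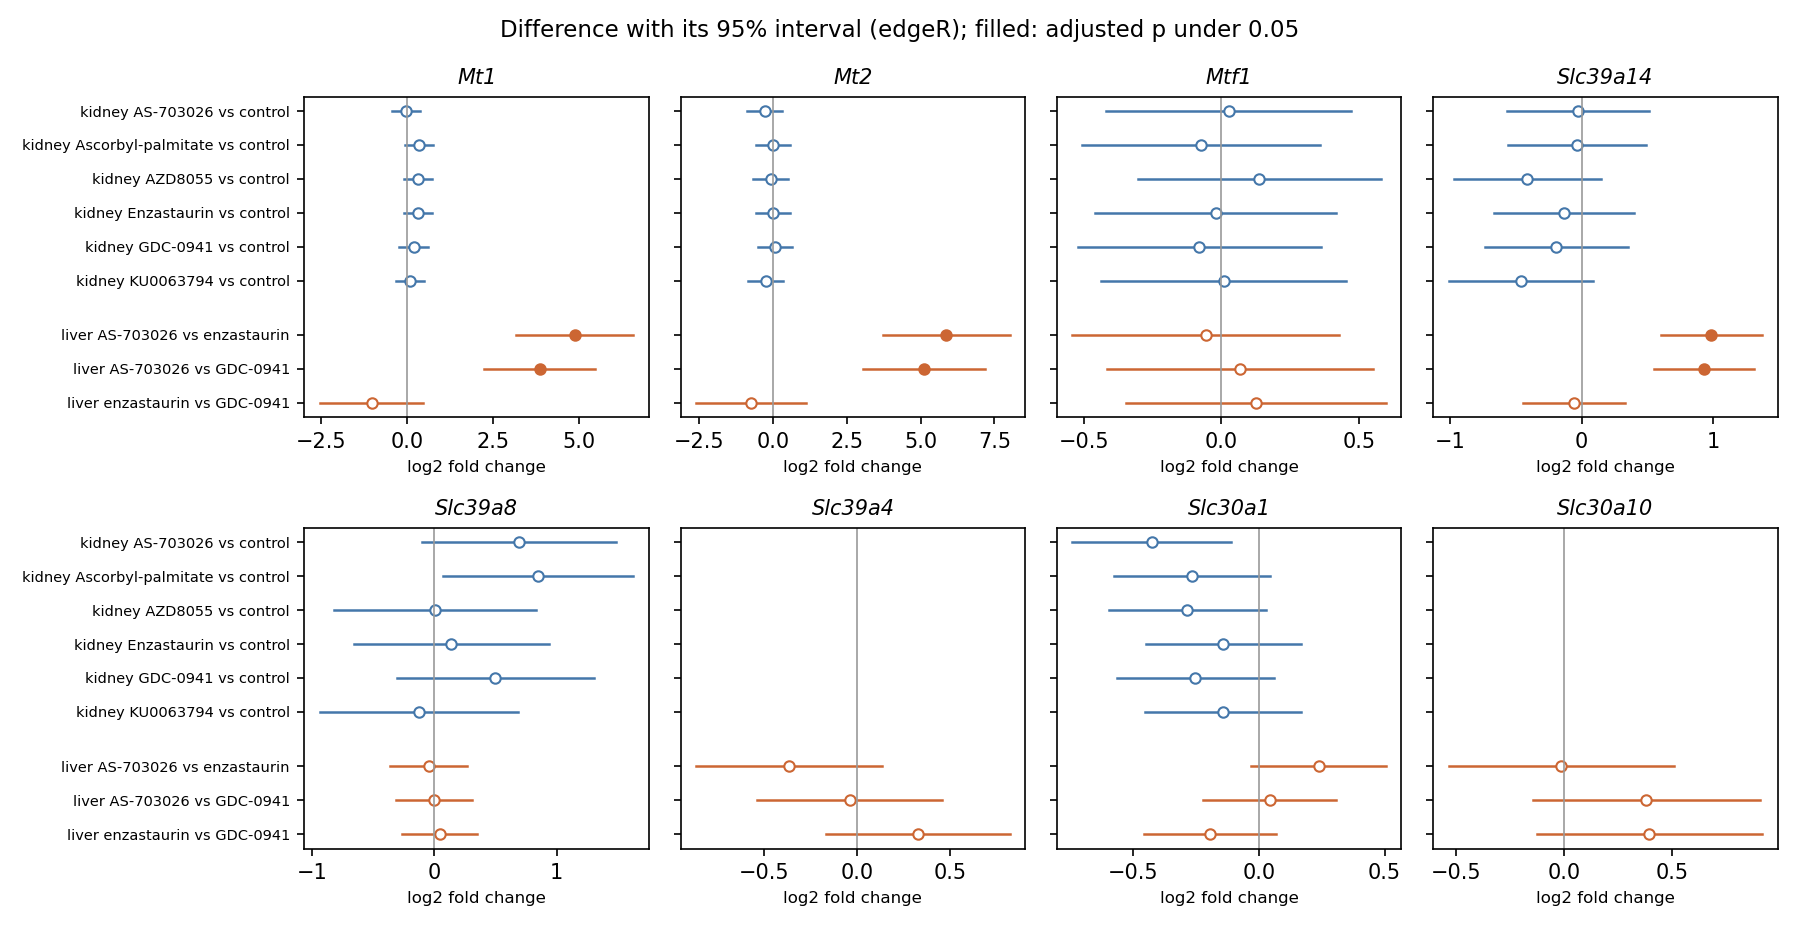
Log2 difference of each gene in 6 kidney comparisons with control (blue) and 3 liver comparisons (orange), with 95% intervals from edgeR; x axes differ between genes and filled points have an adjusted p below 0.05. Filled points appear for Mt1, Mt2 and Slc39a14 in the 2 liver comparisons that hold AS-703026; Slc39a4 and Slc30a10 were too low in kidney to be tested.

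Among the wider ZIP family, 2 of 10 genes tested rose under AS-703026 in each comparison, Slc39a14 and Slc39a1, a zinc importer found in most cells. Slc39a1 was at 106, 123, 79.2 and 91.0 CPM in AS-703026 livers 1 to 4, against 44.2 ± 8.04 CPM under enzastaurin and 46.3 ± 17.2 under GDC-0941. Its log2 differences were 1.17 ± 0.22 and 1.09 ± 0.22 (SE; edgeR adjusted p = 0.0109 and 0.0139). Unlike Slc39a14, it was highest in liver 2. Over the 10 ZIP genes the median log2 difference was -0.09 against enzastaurin and -0.04 against GDC-0941, close to the medians of all genes, -0.01 and 0.00. No gene passed among 7 of the ZnT family, 7 of manganese and divalent metal transport, and 6 zinc enzymes. Of 11 copper genes 1 rose, the acute phase ferroxidase Cp, by 1.09 and 1.11 on the log2 scale. Of the 4 metallothionein genes listed, Mt3 and Mt4 were too low to test.

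Transcripts of the acute phase response were also higher in the AS-703026 livers. Of 20 listed interleukin-6 and acute phase genes, 16 rose against enzastaurin and 17 against GDC-0941, with median log2 differences of 2.01 and 2.27. Saa1, a serum amyloid of that response, was at 21494, 313, 9773 and 2330 CPM in AS-703026 livers 1 to 4 and at no more than 72.0 CPM in any other liver. Liver 2, lowest of its group for Mt1, Mt2 and Slc39a14, was also lowest for Saa1. Among livers 1, 3 and 4, Mt2 fell in the same order as Saa1, at 4211, 3821 and 1069 CPM. Mt1 was instead highest in liver 3, and Slc39a14 was level in these livers. Whether these genes vary with the acute phase genes within the group was not tested. Of 11 glucocorticoid-responsive genes tested, Lcn2 (also in the acute phase list) and Per1 rose against enzastaurin and Lcn2 and Sgk1 against GDC-0941. Of 13 NRF2 targets none rose and Gsta4 fell in both.

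**Figure D4:**
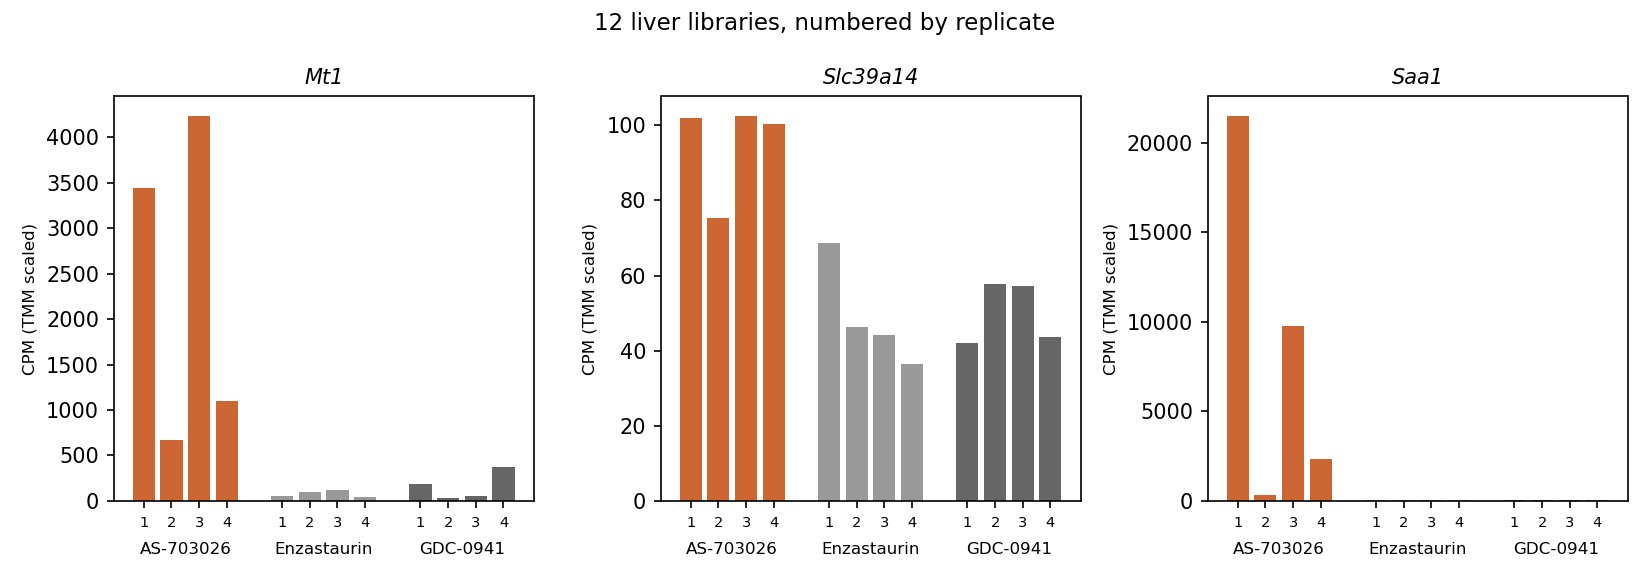
Level of Mt1, Slc39a14 and Saa1 in each of the 12 liver libraries, in CPM from 0, numbered by replicate under each compound. AS-703026 liver 2 is the lowest of its group in all panels, at 670, 75.2 and 313 CPM.

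Other measures separated the AS-703026 livers as well. The 3 neutrophil markers summed to 26.3 to 76.9 CPM under AS-703026, at most 7.33 under enzastaurin and at most 3.20 under GDC-0941, where 1 or 2 of the 3 were at 0 in some libraries. The 3 red cell markers summed to 4090 to 6720, 1121 to 2928 and 1704 to 3908 CPM in the same order, and the 6 hepatocyte markers to 40441 to 61664, 68778 to 76466 and 63000 to 77631 CPM. No hepatocyte or red cell marker was at 0 in any liver library. Cela1, from the list of pancreas exocrine markers, fell in both comparisons (edgeR adjusted p = 0.00202 and 0.00674). It was at 91.5 ± 3.21 CPM under enzastaurin, 75.5 ± 14.3 under GDC-0941 and 33.2 ± 12.9 under AS-703026 (SD, n = 4). Of the 2 genes matched in that list, the other had 0 counts in every AS-703026 and GDC-0941 liver. The list also summed to 62.6 to 126 CPM in control kidneys, so Cela1 was not read as a mark of pancreas cells. The macrophage markers C1qa and C1qb rose against GDC-0941 (log2 differences 0.82 and 0.79; edgeR adjusted p = 0.0416 and 0.0474), and 0 of 5 macrophage markers passed against enzastaurin. The part of neutrophils, red cells, hepatocytes and macrophages in the result was not tested. The satellite-like share was 0.857% to 1.77% under AS-703026 and at most 0.645% in the other livers. With that share as a covariate no gene of the 8 passed in either comparison. The log2 differences against enzastaurin were then 4.23 for Mt1, 4.70 for Mt2 and 1.13 for Slc39a14 (edgeR adjusted p = 0.372, 0.437 and 0.311). Against GDC-0941 they were 3.24, 3.91 and 1.02 (edgeR adjusted p = 0.338, 0.375 and 0.140). Since the shares of the groups do not overlap, group and share cannot be told apart. Leaving out any 1 liver library kept all 3 genes called in both comparisons, with adjusted p at most 0.0400.

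In kidney no gene of the 8 passed in any comparison with control. Slc39a4 and Slc30a10 were below the filter on low counts, and the other 6 were tested under 6 compounds. All genes called made up 0.922% of those tested for AS-703026, 0.0427% for ascorbyl-palmitate, 5.46% for AZD8055, 0% for enzastaurin, 0.137% for GDC-0941 and 0.0427% for KU0063794. The AZD8055 share includes replicate 4 with its adipocyte markers. Its 640 genes became 25 to 842 when 1 kidney library at a time was left out. Of the 36 values for the 6 genes tested, 2 had an unadjusted p below 0.05, and DESeq2 and limma voom also called 0. Per comparison, DESeq2 called 27 to 633 of all genes and limma voom 100 to 342. No kidney group was separate from the controls for any of the 8 genes. Over all genes the groups did not overlap for 3.58% under AS-703026, 2.25% under ascorbyl-palmitate, 2.61% under AZD8055, 1.72% under enzastaurin, 2.55% under GDC-0941 and 1.90% under KU0063794. An F test over the 7 kidney groups called 2.51% of genes and none of the 6. The 6 comparisons share the same controls, so like signs across compounds are not independent.

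Mt1 was at 128, 158 and 170 CPM in the lowest, the median and the highest control kidney. Group means were 153 ± 15.4 CPM in controls (SD, n = 6), 151 ± 20.5 under AS-703026, 198 ± 43.4 under ascorbyl-palmitate, 191 ± 20.9 under AZD8055, 192 ± 47.2 under enzastaurin, 176 ± 74.5 under GDC-0941 and 164 ± 37.1 under KU0063794 (SD, n = 4). From the highest, the order was ascorbyl-palmitate, enzastaurin, AZD8055, GDC-0941, KU0063794, control and AS-703026, and every neighbour in it differed by less than the SDs. The AS-703026 kidneys gave 158, 143, 175 and 127 CPM, within or close to the range of the controls. The log2 difference of Mt1 under AS-703026 was -0.02, with a 95% interval from -0.44 to 0.39. Mt2 was at 66.7 ± 21.1 CPM in controls, and treated means ran from 55.1 ± 12.6 under AS-703026 to 70.2 ± 30.2 under GDC-0941. Its interval under AS-703026, from -0.87 to 0.32, is set against untreated controls, which the liver values above are not.

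Slc30a1 had the lowest p of any of the 8 genes in kidney. Its control kidneys ran from 114 through a median of 157 to 177 CPM, and the AS-703026 kidneys gave 121, 131, 102 and 102 CPM. The lowest control overlapped the upper AS-703026 libraries. The log2 difference was -0.43 ± 0.15 (SE), with an unadjusted p of 0.00959 and an edgeR adjusted p of 0.161. Mean levels under the other compounds ran from 125 ± 19.6 CPM under AZD8055 to 138 ± 13.4 under KU0063794, against 152 ± 22.2 in controls. All 6 differences were below 0, from -0.43 to -0.14.

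Slc39a8 had the other unadjusted p below 0.05 in kidney, under ascorbyl-palmitate. Controls ran from 20.9 through a median of 38.5 to 48.9 CPM. Ascorbyl-palmitate kidneys gave 111, 31.6, 83.1 and 33.8 CPM, so 2 libraries stood above and 2 within the controls. The log2 difference was 0.85 ± 0.38 (SE), with an unadjusted p of 0.0341 and an edgeR adjusted p of 0.343. AS-703026 kidneys gave 31.6, 65.9, 65.1 and 67.9 CPM, with 3 libraries above every control and 1 among them (log2 difference 0.70 ± 0.39, SE; edgeR adjusted p = 0.407). Means under the remaining compounds were 52.2 ± 26.4 for GDC-0941, 38.4 ± 16.7 for enzastaurin, 36.0 ± 16.3 for AZD8055 and 31.4 ± 17.2 for KU0063794, against 35.4 ± 10.6 in controls.

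Slc39a14 was low in kidney, at 16.8 ± 5.67 CPM in controls. It was at 16.5 ± 2.66 under AS-703026, 16.6 ± 5.39 under ascorbyl-palmitate, 15.4 ± 0.897 under enzastaurin and 15.3 ± 5.44 under GDC-0941. The 2 mTOR inhibitors, whose doses differ, gave the lowest means, 12.8 ± 2.22 for AZD8055 at 20 ppm and 12.2 ± 4.03 for KU0063794 at 10 ppm. Their log2 differences from control were -0.41 ± 0.27 and -0.46 ± 0.27 (SE), and neither passed (edgeR adjusted p = 0.430 and 0.592). Mtf1 was at 20.1 ± 4.55 CPM in controls and between 19.1 and 22.1 in the treated means, and none of its log2 differences was beyond 0.14 in size. Across both transporter families, 0 of 10 ZIP and 0 of 8 ZnT genes tested passed under any compound. Of 6 manganese and divalent metal genes 1 fell under AS-703026, the transferrin receptor Tfrc, by 0.92 on the log2 scale (26.5 ± 3.34 against 50.8 ± 13.8 CPM; edgeR adjusted p = 0.0406). Of 11 zinc enzyme genes 2 passed as higher under AZD8055, the carbonic anhydrase Car3 (log2 difference 6.52, edgeR adjusted p = 0.00276) and Alad of heme synthesis (0.63, edgeR adjusted p = 0.0209). Car3 was at 6080 ± 12032 CPM there (SD, n = 4), a spread that arises only if 1 library holds nearly all of the signal. The group holds replicate 4 with its adipocyte markers, whose part in the Car3 call was not tested.

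Slc39a4 and Slc30a10 were nearly absent from kidney. Slc39a4 had 0 counts in 19 of 30 kidneys, and the most was 31 counts (11.3 CPM) in AS-703026 kidney 4. The next were 7 counts in ascorbyl-palmitate kidney 4 and 6 counts each in enzastaurin kidney 1 and AZD8055 kidney 4. Slc30a10 had 0 counts in 23 kidneys and at most 6 in any, and AS-703026 kidney 4 had none. A count of 0 allows up to 3 counts by counting error alone.

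**Figure D5:**
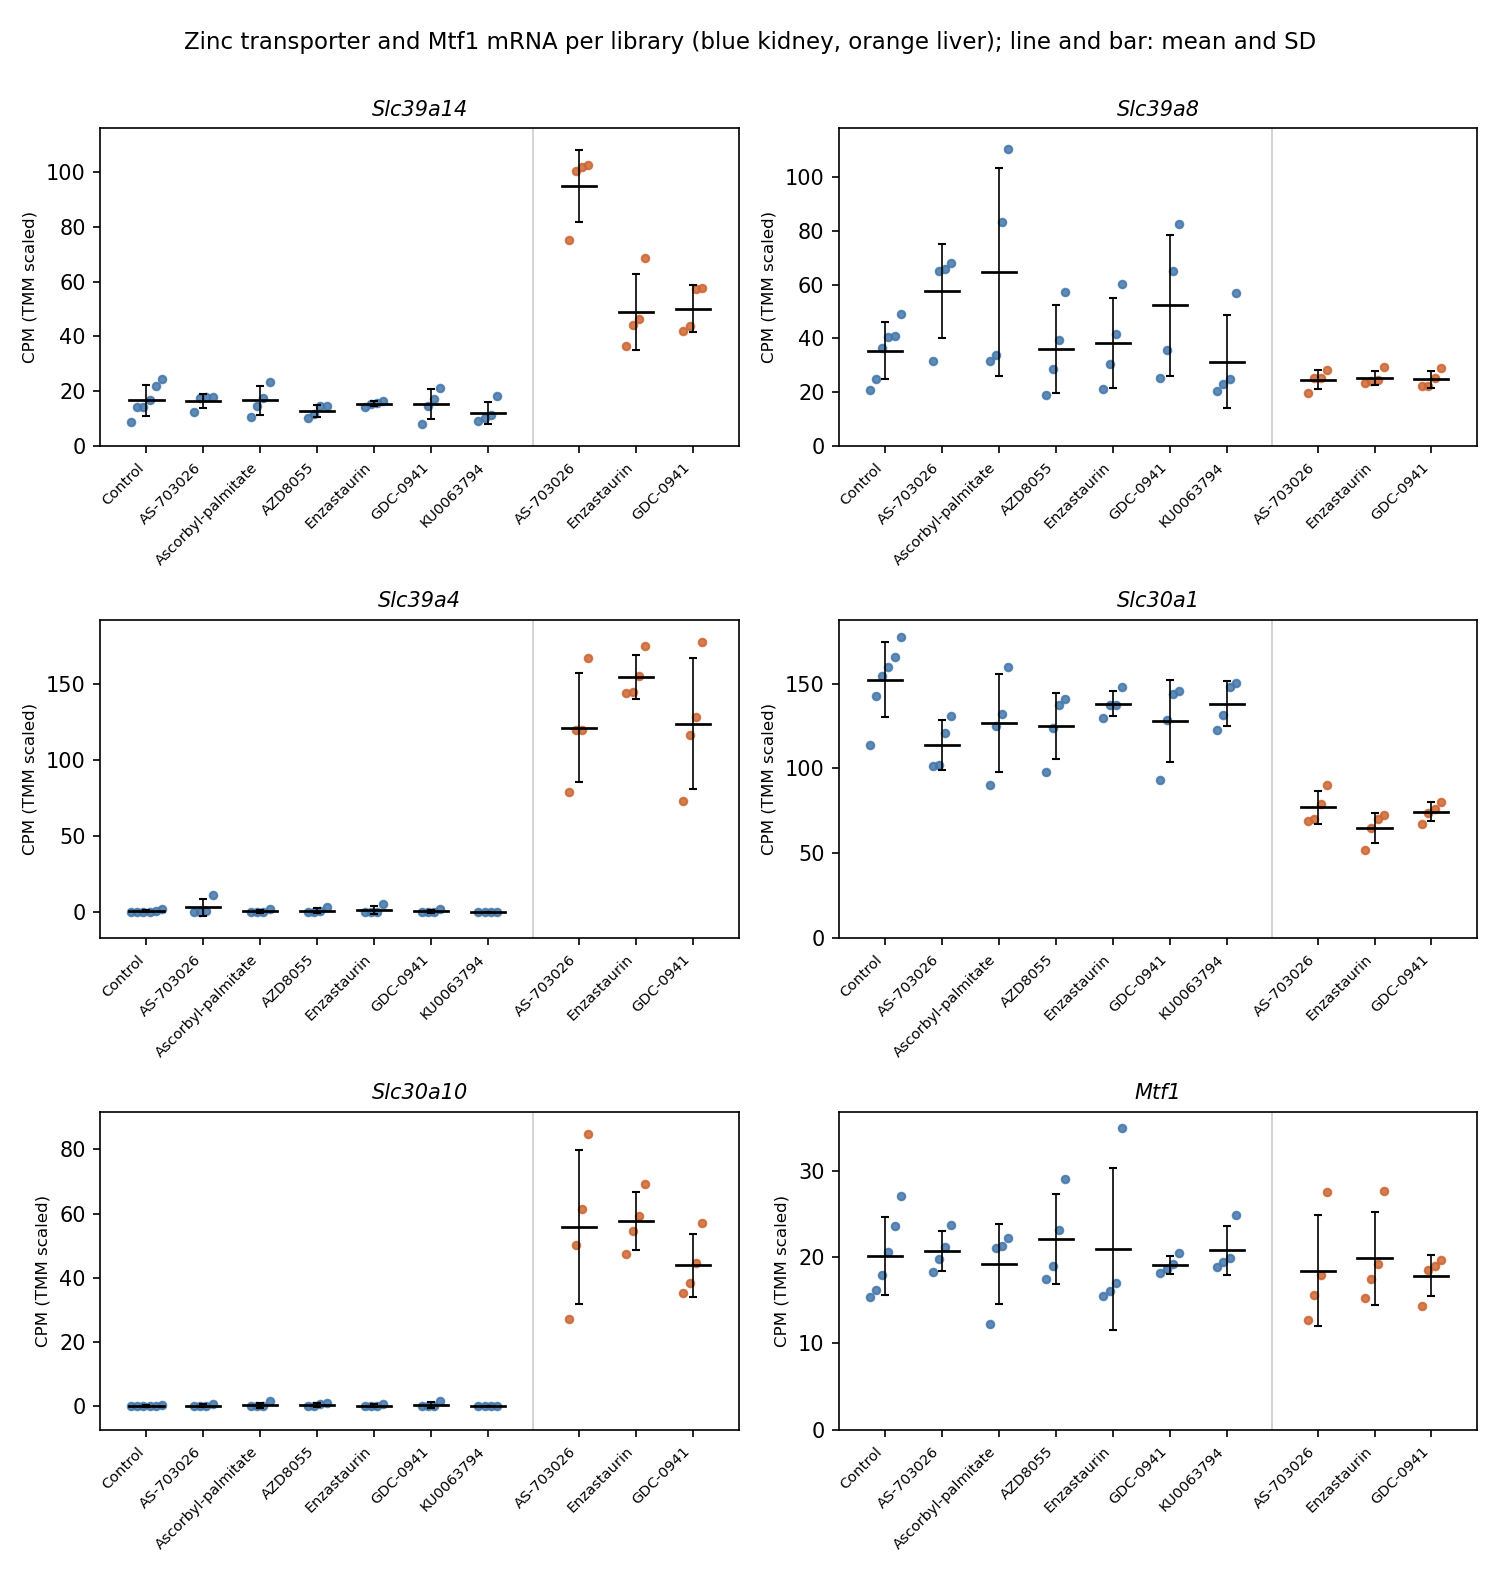
Level of the 5 transporters and Mtf1 in each library, in CPM from 0, by compound for kidney (blue) and liver (orange), with group means and SDs. Slc39a14 under AS-703026 in liver, at 75.2 to 103 CPM, stands apart from the other liver groups, and Slc39a4 and Slc30a10 are near 0 in kidney.

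The compound differences in liver were set against those in kidney under the 3 compounds given to both tissues. The labels do not say whether a kidney and a liver come from the same animal. All libraries were treated as independent here and in the comparison of tissues below. An F test of this interaction called Mt1 (edgeR adjusted p = 0.00899) and Mt2 (edgeR adjusted p = 0.0101), 2 of the 8 genes, where 0.163% of 12262 genes passed. Between AS-703026 and enzastaurin, the log2 difference of Mt1 was 4.89 in liver and -0.33 in kidney, a gap of 5.22 ± 0.86 (SE; edgeR adjusted p = 0.00604, where 0.237% of genes passed). For Mt2 the gap was 6.14 ± 1.06 (edgeR adjusted p = 0.00871). Between AS-703026 and GDC-0941 the gaps were 4.10 ± 0.84 for Mt1 and 5.49 ± 1.05 for Mt2 (edgeR adjusted p = 0.0479 and 0.0260, where 0.106% of genes passed). For Slc39a14 the gap against enzastaurin was 0.85 ± 0.31 (SE; edgeR adjusted p = 0.313), so its difference was not shown to be larger in liver than in kidney. Without AS-703026 kidney 2, 1 gene of the 8 passed the F test, Mt2 then having an adjusted p of 0.0552.

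The levels of the 2 tissues were compared over the same 24 libraries with 1 common scaling. Of the 8 genes 5 passed, all lower in kidney, where 78.0% of genes passed and 38.1% passed as lower. Slc30a10 was lower in kidney by a log2 difference of -8.38 ± 0.33 (SE) and Slc39a4 by -7.21 ± 0.44. With kidney levels near the floor, the size of these fitted differences depends on how 0 counts are treated. Both genes were below the low-count filter in kidney and entered this comparison through their liver counts. Their calls as lower were thus settled by how they entered. The other calls were for Slc39a14, Mt2 and Mtf1. Slc39a14 was at 12.3 ± 2.61 CPM in kidney and 81.1 ± 31.5 in liver (SD, n = 12 each), a log2 difference of -2.67 ± 0.15 (edgeR adjusted p = 1.6e-15). Mt2 was lower in kidney by -1.85 ± 0.78 (edgeR adjusted p = 0.0335) and Mt1 by -1.34 ± 0.63 (edgeR adjusted p = 0.0552). These differences pool 3 compounds that were not alike. On raw library totals, mean Mt1 under AS-703026 was 147 CPM in kidney and 2252 in liver. Under enzastaurin it was higher in kidney, at 193 against 79.5, and under GDC-0941 it was at 170 and 164. Mean Mt2 was at 53.8 and 2262 under AS-703026, 67.9 and 41.1 under enzastaurin, and 67.7 and 69.5 under GDC-0941. The median of Mt2 was 46.6 CPM in kidney and 110 in liver, and that of Mt1 was 125 and 196 CPM. Mt2 lost its call without any 1 of the 4 AS-703026 kidneys, without enzastaurin liver 3 or without GDC-0941 liver 4, with an edgeR adjusted p of up to 0.0851. It also lost it on raw library totals (edgeR adjusted p = 0.158) and with Mt1 and Mt2 summed. Mt1 in turn passed in 11 of 33 alternatives, among them DESeq2 and limma voom. Mtf1 was called lower in kidney by -0.61, and on raw library totals its difference was 0.075 (edgeR adjusted p = 0.608), so no direction is given. Slc30a1 (0.12) and Slc39a8 (0.27) did not pass, and both passed as higher in kidney on raw library totals, at 0.79 and 0.93.

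Mt1 and Mt2 varied together from library to library. Over 30 kidneys their log2 levels had a Pearson r of 0.629 (permutation p = 0.0002) and a Spearman rho of 0.683 (permutation p = 7e-05). Without the 2 kidneys farthest from the median of Mt1, GDC-0941 3 and GDC-0941 1, r was 0.564. After removing group means it was 0.681. Over the 8 enzastaurin and GDC-0941 livers r was 0.961 (exact permutation p = 0.0003) and rho 0.976 (exact permutation p = 0.0004), and 0.968 without 2 livers. The adjusted p over both relations was 0.0003 for each r. The 4 AS-703026 livers form a separate cluster too small for a value of their own.

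Genes whose levels followed each member most closely within groups are given as a description, over 28 kidneys and 12 livers, all measured in the same libraries. They were picked as the highest r among 9725 genes in kidney and 8323 in liver, so a high r can arise from the search alone. In kidney Mt1 followed Aldh1l1 (r = 0.748) and the copper chaperone Atox1 (r = 0.722), and Mt2 followed 1700123O20Rik (r = 0.685) and Aldh1l1 (r = 0.677). Slc39a8 followed Napsa (r = 0.856), the vitamin C transporter Slc23a1 (r = 0.848) and Cyp7b1 (r = 0.846). Slc30a1 followed Atp6v1a, a subunit of the proton pump (r = 0.888), and Tns1 (r = 0.884). Slc39a14 followed Rab27a (r = 0.756) and Mtf1 followed Ddx20 (r = 0.701). In liver Mt1 and Mt2 both followed Rbbp6 (r = 0.921 and 0.951) and Smurf2 (r = 0.912 and 0.892). Slc39a14 followed Zbed4 (r = 0.923), Slc39a8 the calmodulin gene Calm2 (r = 0.959), Slc39a4 Fam204a (r = 0.931), Slc30a1 Arid1b (r = 0.901), Slc30a10 Tusc2 (r = 0.957) and Mtf1 Sptlc2 (r = 0.927).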

How the data were processed

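RNA of kidney and liver was measured in 42 libraries by CEL-seq. The values are counts of reads per gene, as deposited by the authors in a table of 43629 Ensembl genes, not normalized. Per the submitters' processing notes, bcl2fastq 1.8.4, Trimmomatic 0.32, STAR 2.5.2b and featureCounts 1.5 were used with the mm10 genome. Annotation release, strand setting and use of molecular identifiers were not given in the sources used here. Reads shared by overlapping genes could thus be assigned in ways that are not known. Symbols and coordinates come from GENCODE M21 (GRCm38), which matched 42462 identifiers, and promoter sequences from RefSeq. Each column carried the name of 1 sample.

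Groups are a tissue and a compound. Counts were filtered by filterByExpr and scaled by TMM, giving 11719 genes tested for kidney, 9490 for liver and 12262 for the joint fit. Each tissue was fitted once, over its whole set of libraries, with edgeR 4.0.16 (R 4.3.3), tested on simulated data first. Standard errors are the log2 difference divided by the square root of F. Intervals cover 95%. The lowest chi-square per gene between libraries of a group was 3.67, so each library counted as a sample. Satellite-like gene models have 5% or more of their 24-base words in common with Gm10800.

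The 8 genes, the other gene lists and the tests were chosen with earlier results of these data known. From each list, genes passing the threshold could be named, up to 4 in a comparison by p. For each of the 8 genes, up to 3 genes with the highest within-group correlation and a mean of at least 5 CPM could be named. Alternatives were DESeq2 1.42.0, limma voom 3.58.1 with sample weights, RLE scaling, no filter, Mt1 and Mt2 summed, the replicate number as a block, a term for the satellite-like share, the 2 groups alone, leaving out libraries and, added after seeing the data, raw library totals. Same-numbered libraries were not paired by the labels.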

Additional observations from a re-analysis of the deposited data

Results flagged for a closer look

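Both metallothioneins showed compound differences that were not alike in liver and kidney, by the test of the interaction (adjusted p = 0.00899 for Mt1 and 0.0101 for Mt2).

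A library stood far from the other 3 of its group in 11 of 71 sets of values examined. Chance alone flags about 1 in 20 where values are normally distributed. CPM need not be, least of all near 0 counts, so 11 of 71 was not read as an excess. In liver this was AS-703026 liver 2 for Slc39a14, at 75.2 CPM below 3 libraries at 100 or more. In kidney AS-703026 replicate 1 was low for both Slc39a14 (12.5 CPM) and Slc39a8 (31.6 CPM). KU0063794 kidney 4 was high for Slc39a8, at 57.0 CPM. For Mtf1, ascorbyl-palmitate kidney 3 was low at 12.3 CPM, enzastaurin kidney 1 high at 34.9 CPM and KU0063794 kidney 1 high at 24.9 CPM. For Slc39a4, AS-703026 kidney 4 was high at 11.3 CPM, enzastaurin kidney 1 at 5.11 CPM and ascorbyl-palmitate kidney 4 at 1.86 CPM. The last library was also high for Slc30a10, at 1.60 CPM from 6 counts. For both genes the other 3 ascorbyl-palmitate kidneys had 0 counts, so these flags were bound to follow.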

How the results depend on the processing

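Of 2824 values of the 8 genes under alternatives, 2782 kept their call, 18 lost it, 23 gained it and 1 called value changed sign, Mtf1 between tissues on raw library totals (0.075). Among the 2782, 152 values that were not called changed sign. Once the satellite-like share entered the model, 0 genes passed in the comparisons of AS-703026 with enzastaurin, with GDC-0941 and in the liver F test, where 3 passed in each. Without the low-count filter, 1 gene of the 8 passed the kidney F test (Slc39a8, edgeR adjusted p = 0.0406). Between enzastaurin and GDC-0941 livers 2 then differed, Mt1 and Mt2, and the standard error of Mt1 was 0.149 in place of 0.700. Over the alternatives other than leaving out 1 library, the kidney F test called 9 to 1196 of all genes. That liver pair gave 0 to 207 and the interaction 16 to 484. Without the filter the interaction called 3 genes, with Slc39a4 added (edgeR adjusted p = 3.46e-09). Slc39a4 had 0 counts in 19 of 30 kidneys and 31 counts in AS-703026 kidney 4. With Mt1 and Mt2 summed, the sum passed the interaction test and counts as 1 gene. Leaving out 1 library, the interaction called 1 to 2 genes of the 8 and 11 to 38 of all genes. DESeq2 called 8 genes between tissues in place of 5, where it called 9600 of all genes in place of 9566. Leaving out AS-703026 liver 3 gave the lowest Mt1 differences, 4.44 and 3.42, and leaving out AS-703026 liver 1 the lowest for Mt2, 5.44 and 4.70; the highest were 5.19 and 4.71 for Mt1 and 6.52 and 5.95 for Mt2.

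Within a tissue, replicate numbers did not pair the libraries, since in no comparison was every correlation of same-numbered libraries over 0.1. Kidneys were not checked against livers of the same number. The block by number runs across compounds and does not stand for an animal. With the number as a replicate block, 3 genes passed in each AS-703026 liver comparison, 2 in the interaction, 5 between tissues and 0 in kidney.

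The number of all genes called, which gives the background shares, was less stable. Over the alternatives it ran from 1 to 673 around 281 for AS-703026 against enzastaurin in liver and from 22 to 769 around 306 against GDC-0941. In kidney it ran from 0 to 339 around 108 for AS-703026 and from 0 to 842 around 640 for AZD8055.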
